A study of Sus scrofa with 4 samples.

Results

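Complement components and their regulators were examined by the 10 probe sets that the array annotation assigns to 8 of 9 genes sought, among 24123 probe sets in all. The genes were C3, C4A, C1QA, C1QC, C1S, CFB, CFD and C7, of which CFB and C7 had a pair of probe sets each and the others 1. No probe set was annotated to C1QB, which was therefore skipped. RNA came from hearts of minipigs with myocardial infarction (MI), and a single Affymetrix Porcine Genome Array was run for each of 4 tissues: infarct zone and border zone of myoblast-treated hearts, and infarct zone and border zone of control hearts. As the methods describe, MI was made in female Chinese Bama minipigs by ligation of the left circumflex coronary artery, the myoblasts were human skeletal muscle cells suspended in DMEM, and the control treatment group received DMEM alone, both under cyclosporin A. The labels call the control tissue untreated, whereas the paper states that its arrays compared the myoblast group with the control treatment group. Its C3 fold change over that group, 2.88, equals the infarct zone ratio of the arrays used here. By the paper, therefore, the control arrays came from minipigs given DMEM and cyclosporin A. Were the label right instead, each ratio of myoblast over control would also hold the difference in DMEM and cyclosporin A. The number of minipigs behind an array and the time of sampling are not given in the sources used here. With 1 array per tissue no spread between minipigs can be measured, so each value below is a description of 4 arrays, and a ratio of at least 2, the threshold of the methods, serves as the call in place of a test.

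Complement is a cascade of blood and tissue proteins that marks cells and debris for removal. In the classical pathway C1q, a protein built of A, B and C chains, binds its target and activates the proteases C1r and C1s, which cleave C4 and C2. In the alternative pathway factor D (CFD) cleaves factor B (CFB) bound to C3b. Both routes cleave C3, and the terminal components including C7 assemble into the membrane attack complex. Most circulating complement is made in the liver, while macrophages are a known source of C1q, and infarcted heart is a classical setting of complement activation.

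Signals are MAS 5.0 units, in which the median probe set stood at 142 and 140 on the myoblast arrays (infarct and border zone) and at 137 and 139 on the control arrays. Of the 10 probe sets, 8 lay above the median on all 4 arrays. The brighter CFB probe set lay above it only in the infarct zone after myoblasts, and the dimmer CFB probe set on no array. The tissue carried markers of heart: all 11 cardiomyocyte markers measured, of 12 sought, lay above the median on at least 1 array (range 1246 to 37290). The zone labels are not established by these markers. Their summed signals were higher in the infarct than in the border zone, after myoblasts (208682 and 195114) and in controls (257388 and 224476). All 6 skeletal muscle and myoblast markers measured, of 12 sought, lay under the median on every array (2.18 to 47.4). The array is porcine, and whether its probe sets detect or miss RNA of the human graft was not tested. The 28S rRNA signal was 10230 and 8477 on the myoblast arrays, against 15983 and 15770 on the control arrays. The ratio of the 3′ over the 5′ probe set of EF1A, a sign of RNA quality, was 2.49 and 3.01 on the myoblast arrays (infarct and border zone), against 4.13 and 4.17 on the control arrays, while of 3 such pairs for GAPDH 1 was lower on both myoblast arrays and 2 overlapped. The part of either in the ratios below was not tested.

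All 10 complement probe sets had their highest signal of the 4 arrays in the infarct zone after myoblast transplantation, as did 25.9% of all probe sets and 25.2% of those above the median on every array. For 9 of the 10, both myoblast arrays were above both control arrays, against 22.8% of all probe sets and 27.3% of those above the median on every array, with C1QA as the exception. In such bulk tissue fewer or more cells of a type and less or more RNA per cell cannot be told apart. In the infarct zone 8 probe sets were at least 2-fold higher with myoblasts and none was 2-fold lower. Among all probe sets of that comparison 10.5% were 2-fold higher and 9.58% 2-fold lower, and among those above the array median 3.37% and 2.55%. In the border zone 5 were at least 2-fold higher and none lower, beside 9.95% and 10.4% of all probe sets and 3.41% and 2.83% of those above the median. The same 5 were 2-fold higher in both zones, namely C3, C4A, both C7 probe sets and the dimmer CFB probe set, beside 2.91% of all probe sets and 1.11% of those above the median in both zones. The median ratio of the 10 was 2.57 in the infarct zone and 1.89 in the border zone, whereas that of all probe sets was 1.007 and 1.001. The ratios of C1QA (infarct zone), C4A and the dimmer CFB probe set (border zone) were close to the threshold, so the counts rest partly on single values just past 2. The dimmer CFB probe set lay far under the medians, and its ratios were 1.03 and 1.005 in the infarct and border zone with signals floored there. Among member probe sets above the median in the comparison, 7 of 9 were 2-fold higher in the infarct zone and 4 of 8 in the border zone.

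**Figure D1:**
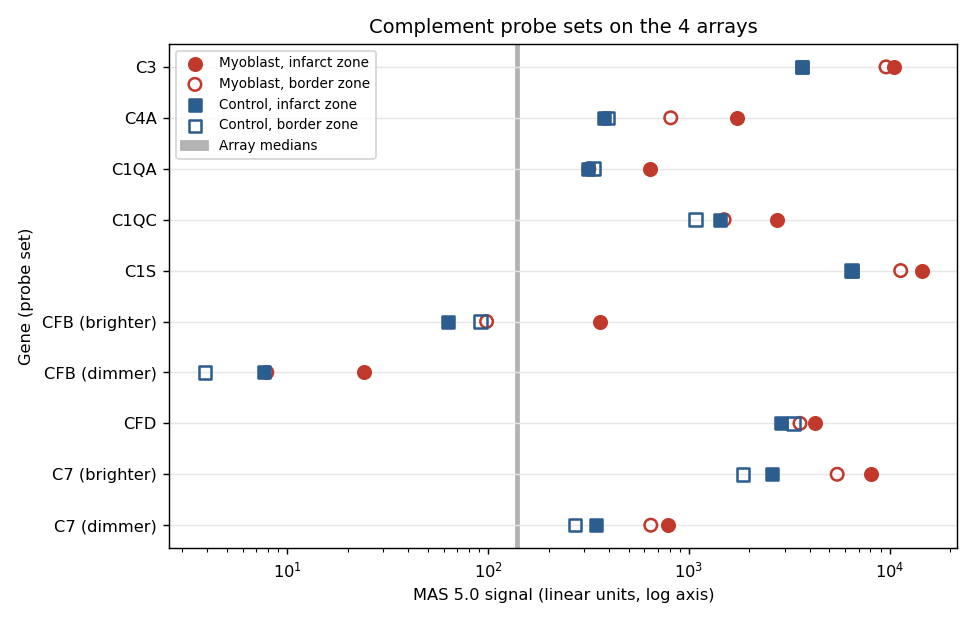
MAS 5.0 signals (x axis, linear units on a log axis) of the 10 complement probe sets (y axis) on the 4 arrays; circles are myoblast arrays, squares control arrays, filled symbols the infarct zone and open symbols the border zone, and the grey band covers the 4 array medians. The filled circle is the rightmost symbol in every row, and both CFB probe sets lie mostly to the left of the band.

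C3, on which all activation routes converge, was higher with myoblasts to a like extent in both zones. Its signals were 10466 and 9571 in the infarct and border zone after myoblasts, against 3637 and 3647 in the same zones of controls. The ratios were thus 2.88 in the infarct zone and 2.62 in the border zone. Few bright probe sets reached such values: 147 of 12746 above the array median (1.15%) had an infarct zone ratio as high, and 138 of 12735 (1.08%) a border zone ratio as high. C7, the terminal component that anchors the forming membrane attack complex in the membrane, showed the same pattern on 2 probe sets. The brighter one had signals of 8073 and 5466 in the infarct and border zone after myoblasts, against 2575 and 1860 in controls, and the dimmer one 787 and 646 against 343 and 271. The ratios were 3.14 and 2.94 on the brighter probe set and 2.30 and 2.38 on the dimmer one, so both placed each myoblast array above each control array. For C3 and C7 the difference between treatments was larger than that between zones.

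The members of the classical pathway were also highest after myoblasts, but more so in the infarct zone. This did not hold for C1R and C2, classical pathway genes outside the members. Their ratios were 1.52 and 1.53 for C1R, and 1.20 and 1.83 for C2, in the infarct and border zone. C4A, the substrate of C1s, had signals of 1740 and 811 in the infarct and border zone after myoblasts, against 379 and 396 in controls. Its ratio of 4.60 in the infarct zone was reached by 62 of 12746 bright probe sets (0.486%), and that of 2.05 in the border zone by 402 of 12735 (3.16%). C1S had signals of 14389 and 11319 against 6470 and 6433, that is 2.22 and 1.76 times the control signal in the infarct and border zone. In the mean over zones C1S stood at 1.98, just under the threshold, and passed it after quantile normalization (log2 ratio 1.11). Of the C1q chains, C1QA had close control and myoblast signals in the border zone, unlike C3 and C7, while C1QC was higher with myoblasts. C1QA had 642 and 317 in the infarct and border zone after myoblasts, against 314 and 334 in controls, so 3 of the arrays lay together and the infarct zone after myoblasts stood apart. C1QC had 2743 and 1496 against 1428 and 1079. The infarct zone ratios of the chains were near each other (2.05 for C1QA and 1.92 for C1QC), while the border zone ratios lay on either side of 1 (0.949 and 1.39). C1QA, C1QC and C1QB are direct neighbours in the RefSeq annotation of Sscrofa11.1.

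The alternative pathway genes differed from one another. CFB, which supplies the protease of the alternative C3 convertase, had signals of 359 and 98.3 on its brighter probe set in the infarct and border zone after myoblasts, against 62.8 and 91.6 in controls. Only the infarct zone after myoblasts stood apart, with a ratio of 5.71, whereas the border zone ratio was 1.07. Since the other 3 signals lay under the array medians, the infarct zone ratio was 2.62 with signals floored at those medians. The dimmer CFB probe set had 24.2 and 7.92 against 7.68 and 3.90 in the same order, far under the array medians, with the same array highest. CFD (factor D, also known as adipsin for its expression in fat) had the smallest mean ratio of the 10 probe sets. Its signals were 4227 and 3570 in the infarct and border zone after myoblasts, against 2872 and 3304 in controls, with ratios of 1.47 and 1.08. CFB and its paralog C2 lie side by side in the annotation, with 4 genes between CFB and C4A, yet C2, a single dim probe set at 67.5 to 125 units, had ratios of 1.20 and 1.83 in the infarct and border zone, a smaller value in the infarct zone than in the border zone.

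**Figure D2:**
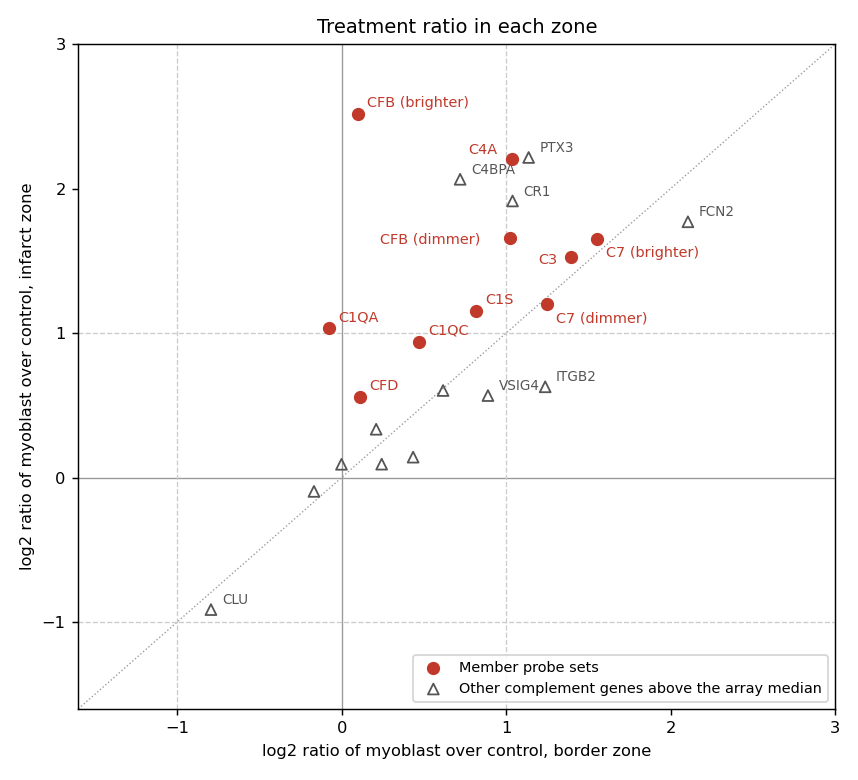
Log2 ratio of myoblast over control in the border zone (x axis) and in the infarct zone (y axis) for the 10 member probe sets (filled circles) and the 13 other complement genes above the array median in both zones (triangles); dashed lines mark 2-fold and the dotted line equal ratios. C3 and C7 lie near the dotted line, and CFB, C4A and C1QA lie well above it.

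The zones were then compared within each treatment. In controls no complement probe set was 2-fold higher or lower in the infarct than in the border zone (8.95% and 8.25% of all probe sets, 0.525% and 0.7% of those above the median). In controls 5 had zone ratios above 1 and 5 below 1, C3 and C1S being so close to 1 that they changed side with the scaling of the arrays, and the median ratio was 1.001. After myoblasts all 10 had ratios of infarct over border zone above 1, with a median of 1.65, beside 52.8% of all probe sets and 50.9% of those above the median on every array. Of these, 4 were at least 2-fold higher in the infarct zone, beside 9.77% of all probe sets and 1.36% of those above the median, and none was 2-fold lower, beside 8.18% and 2.32%. The 4 were both CFB probe sets (3.65 and 3.06), C4A (2.15) and C1QA (2.02), and C1QC followed at 1.83. Without the dimmer CFB probe set, which lay under the median on every array, 3 of 9 were 2-fold higher. In controls the ratios of infarct over border zone were 0.686 and 1.97 for the CFB probe sets, 0.955 for C4A, 0.938 for C1QA and 1.32 for C1QC. C1S and C3 had ratios of 1.27 and 1.09 after myoblasts and of 1.01 and 0.997 in controls. For C7 the zone ratios were close in both treatments, at 1.48 and 1.22 after myoblasts and 1.38 and 1.26 in controls. The zone ratio was larger after myoblasts than in controls for 9 of the 10 probe sets, against 51.5% of all probe sets and 50.9% of those above the median on every array. It was larger for only 9 of the 27 other complement genes described below, so this was not a trait of complement genes at large. The quotient of the zone ratios was 2.25 for C4A and 2.16 for C1QA, and 1.10 for C3 and 1.07 and 0.966 for C7. For CFB it was 5.32 on the brighter probe set and 1.56 on the dimmer one, and 2.61 and 1.03 with signals floored at the array medians. These quotients are differences between 4 single arrays and were not tested.

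**Figure D3:**
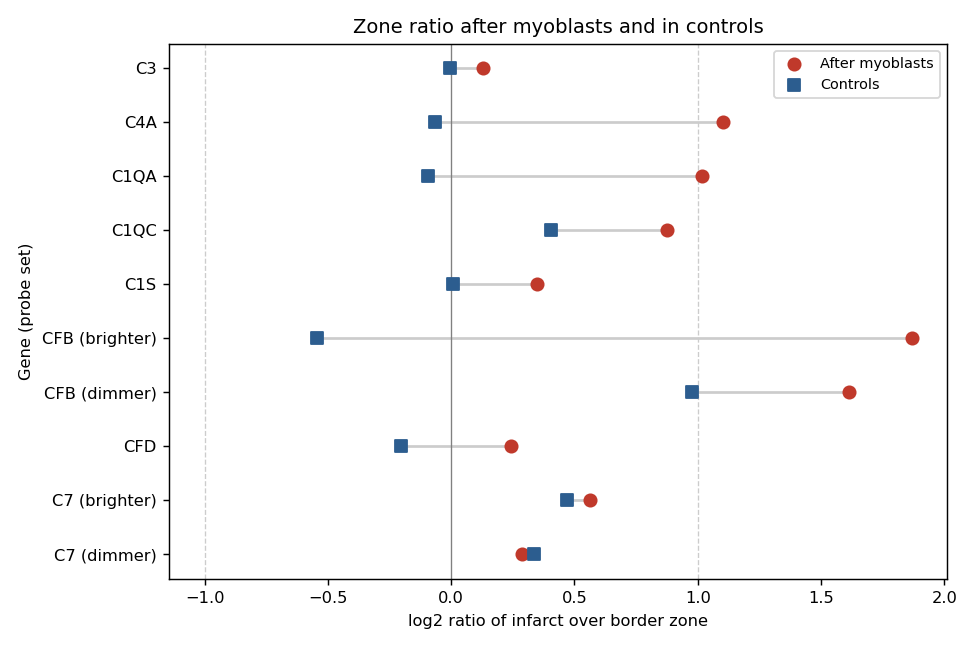
Log2 ratio of infarct over border zone (x axis) after myoblasts (circles) and in controls (squares) for the 10 complement probe sets (y axis); dashed lines mark 2-fold. All circles lie to the right of 0, while the squares lie on both sides of it, and the pair of symbols is widest apart for the brighter CFB probe set and nearly coincides for C7.

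Of 47 other complement genes sought, 27 were measured, and each is given here by its brightest probe set. The infarct zone after myoblasts had the highest signal for 11 of the 27, beside 25.9% of all probe sets. Both myoblast arrays were above both control arrays for 10 of the 27, beside 22.8% of all probe sets. In the mean over zones 6 of the 27 were at least 2-fold higher with myoblasts and 2 lower, beside 7.7% and 7.82% of all probe sets, and their median ratio was 1.22 against 1.01 for all probe sets. Among the 13 above the array median in both zones 4 were 2-fold higher and none 2-fold lower, beside 1.99% and 1.69% of bright probe sets. These counts depend on the filter. FCN2 passed it only through its myoblast arrays, as did CR1 in the border zone. With signals floored at the array medians their mean ratios were 1.37 and 2.09. C9, 2-fold lower in the mean, fell outside the 13 because its border zone signals lay under the medians. The 4 were FCN2, PTX3, CR1 and C4BPA. FCN2, a ficolin that starts the lectin pathway, had signals of 163 and 218 in the infarct and border zone after myoblasts, against 47.9 and 50.6 in controls, with ratios of 3.41 and 4.30, which became 1.19 and 1.57 once low signals were raised to the median of their array. PTX3, a pentraxin that binds C1q, had 1689 and 677 against 364 and 308 (ratios of 4.64 and 2.20), and a dimmer PTX3 probe set had 1.12 and 1.64. CR1, the receptor for C3b and C4b, had 635 and 162 against 169 and 78.7 (3.77 and 2.05), and its border zone ratio was 1.16 with the control signal raised to the array median.

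PTX3 and CR1, like C4A, were thus highest in the infarct zone after myoblasts, whereas FCN2 was highest in the border zone after myoblasts. ITGB2, the beta chain of complement receptor 3, and VSIG4, a macrophage receptor for C3b, had ratios of 1.55 and 2.36 and of 1.48 and 1.85 in the infarct and border zone. ITGAM, the alpha chain of that receptor, added after the values were seen, lay under the median on every array (9.21 to 51.1). Its 2 probe sets went opposite ways, at 0.668 and 3.25, and at 1.58 and 0.234, in the infarct and border zone. The border zone ratio of ITGB2 was 1.48 with its control signal of 87.0 raised to the array median, and dimmer VSIG4 probe sets had 1.19 and 1.29, and 0.792 and 1.04. Of the 10 regulators measured, 1 was 2-fold higher in the mean, none 2-fold lower and 9 lay between, beside the 7.7% and 7.82% of all probe sets given above. C4BPA, the alpha chain of the C4b-binding protein, an inhibitor of the classical pathway, had 6916 and 2053 in the infarct and border zone after myoblasts, against 1654 and 1246 in controls, with ratios of 4.18 and 1.65. Clusterin (CLU) and vitronectin (VTN), which inhibit the membrane attack complex, were the only other complement genes above the median whose mean ratio was below 1. CLU had 2675 and 2650 with myoblasts against 5039 and 4595 in controls, ratios of 0.531 and 0.577, and VTN had ratios of 0.936 and 0.890.

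Several genes chosen after their values were seen complete the account. C1R, the partner protease and direct genomic neighbour of C1S, had ratios of 1.52 in the infarct zone and 1.53 in the border zone. The brightest probe sets of the C1 inhibitor SERPING1 (1.10 and 1.35) and of the membrane regulators CD46 (1.07 and 1.18), CD55 (1.07 and 0.999) and CD59 (1.26 and 1.16) had ratios nearer to 1 than those of C3, C4A or C7. Another probe set of CD59 had 1.59 and 1.66, and others of CD46 and CD55 ranged in their ratios between 0.475 and 1.70. The terminal components C8A, C8B, C8G and C9, partners of C7 in the membrane attack complex, were not above the median in both zones on any probe set. By brightest probe set 2 of these 4 were 2-fold lower in the mean and none higher, beside 7.82% and 7.7% of all probe sets. C9 had 54.1 and 57.4 in the infarct and border zone after myoblasts, against 177 and 125 in controls. Its ratios were 0.306 and 0.460, or 0.802 and 1.005 with signals floored at the array medians. C8G had 0.171 and 0.454, but 1.23 and 6.63 on its dimmer probe set.

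**Figure D4:**
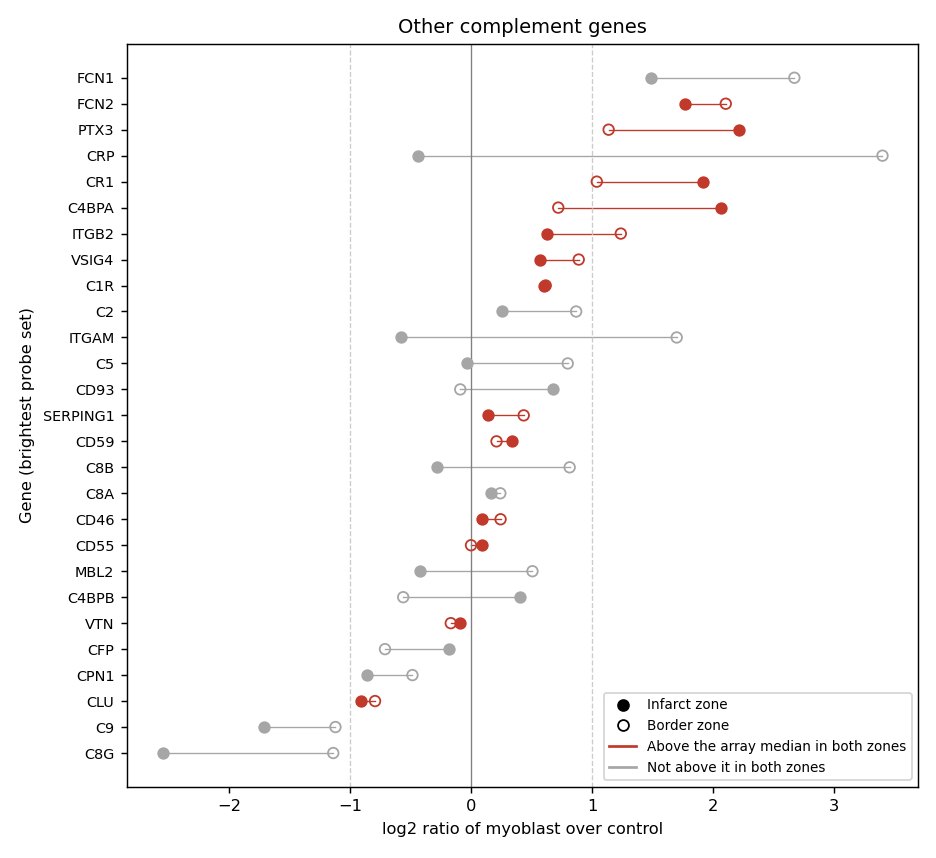
Myoblast over control as a log2 ratio (x axis) in the infarct zone (filled circles) and the border zone (open circles) for the brightest probe set of each of the 27 other complement genes (y axis, ordered by the mean over zones); red marks the 13 genes above the array median in both zones and dashed lines mark 2-fold. Most red genes lie to the right of 0, with CLU furthest to the left among them.

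Markers of cell types that express complement were measured on the same arrays. Of 12 macrophage and monocyte markers sought, 8 were measured, and 8 of 8 had ratios above 1 in the infarct zone and 5 of 8 in the border zone, beside 50.7% and 50.2% of all probe sets. With median centring the infarct zone count was 7 of 8, since the FCER1G signals of 530 and 529 were nearly equal. Their summed signals were 6188 and 4730 in the infarct and border zone after myoblasts, against 4521 and 3985 in controls. The median log2 ratio of infarct over border zone of these markers was 0.69 after myoblasts and 0.12 in controls, but the markers were split, with a larger zone ratio after myoblasts for 5 and a smaller one for 3. The 3 were AIF1, FCER1G and TYROBP, each above the median on every array. AIF1 had 902 and 1037 in the infarct and border zone after myoblasts, against 655 and 640 in controls, and TYROBP, a signalling adaptor of myeloid cells, had 1076 and 940 against 814 and 499. Among the 5, CD163, a scavenger receptor of macrophages, had 1810 and 1053 against 1300 and 1330, and CD14 lay under the median on all arrays (28.7 to 79.1). The part of macrophage RNA in the complement ratios was not tested.

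The other lists are given by their summed signals. Summed fibroblast markers (8 of 10 measured) were 49294 and 81800 in the infarct and border zone after myoblasts, against 65403 and 65180 in controls. After myoblasts the infarct zone sum was thus lower, unlike for the complement members, and 0 of 8 had a zone ratio above 1, beside 52.8% of all probe sets. In controls 3 of 8 had one. Ratios of myoblast over control were above 1 for 3 of 8 in the infarct zone and 7 of 8 in the border zone, beside 50.7% and 50.2% of all probe sets. Summed endothelial markers (6 of 6 measured) were 9197 and 7297 against 6875 and 7303, and summed cardiomyocyte markers 208682 and 195114 against 257388 and 224476. The adipocyte sums (4 of 6 measured) of 7769 and 5663 against 1783 and 1876 came almost wholly from FABP4, which capillary endothelium also expresses. The brightest probe set annotated here to adiponectin (ADIPOQ) lay at 12.3 to 28.6 on every array. The paper, however, lists adiponectin at a ratio of 0.0394, equal to the lowest border zone ratio among probe sets above the array median. A brighter adiponectin probe set, lower with myoblasts, may thus be missing from the annotation used here. Albumin (ALB), the defining marker of liver, lay at 54.5 to 86.1, under the medians. Of the 8 hepatocyte markers measured, 1 exceeded a median (APOA1). All 4 neutrophil markers measured, of 7 sought, were under the medians (7.39 to 112), with sums of 241 and 225 in the infarct and border zone after myoblasts, against 83.2 and 139 in controls.

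The genes whose profile over the 4 arrays was nearest to that of C3 were sought among single-symbol probe sets above the median on every array and outside the lists used here, by Euclidean distance of centred log2 signals. These were SGK1, a serum- and glucocorticoid-induced kinase (distance 0.0855), ZKSCAN5, a zinc finger protein (0.0862), and RDH14, a retinol dehydrogenase (0.125). SGK1 had signals of 3919 and 3405 in the infarct and border zone after myoblasts, against 1405 and 1370 in controls. The nearest member was the dimmer C7 probe set at 0.353, followed by the brighter C7 probe set at 0.476 and C1S at 0.499, and the furthest was the brighter CFB probe set at 1.30. With 4 arrays many profiles are alike, and the order among near values has no error attached.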

How the data were processed

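The authors hybridized 1 biotin-labelled cRNA per tissue to GeneChip Porcine Genome Arrays and normalized the scans with the MAS 5.0 algorithm in Gene Spring Software. The values deposited by the authors are log2 signals, used here as deposited, and no per-array column was left out. On the linear scale each array had a mean of 500.1 after trimming 2% at each end. Arrays have no read depth, and their number limits the precision.

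Probe sets were named by the platform annotation, and the gene IDs of all 10 member probe sets gave the same symbol in RefSeq. Log2 ratios of myoblast over control within each zone, and of infarct over border zone within each treatment, were computed per probe set and called at 2-fold, with no test. A probe set counted as above the array median when the higher signal of a comparison exceeded its array's median (in both zones for the mean). All probe sets of the members are reported. Of the other complement genes, those above the median whose ratio passed 2-fold in one direction in each zone are named, with the 6 largest rises and 4 largest falls in the mean, of which 2 existed. Members, lists and rules were chosen with earlier results of these data known. The ratio calculation was checked on noise-free simulated signals with known fold changes, which tests the arithmetic and not the reliability of the calls. Alternatives were quantile normalization, median centring, flooring signals at their array's median or 25th percentile, bright probe sets only, the brightest probe set or the mean per gene, 1.5-fold and 4-fold thresholds and the ratio of arithmetic means; counting all probe sets of the other genes was added after seeing the data. Python 3.11.15 with pandas 2.3.3 was used. No probe, promoter or protein sequence was used here.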

Additional observations from a re-analysis of the deposited data

Results flagged for a closer look

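For 6 named genes the infarct and border zones differed in opposite directions after myoblasts and in controls, a difference between single arrays that was not tested. The quotient of the zone ratios (infarct over border zone after myoblasts, divided by the same in controls) was 5.32 for the brighter CFB probe set, 2.25 for C4A, 2.16 for C1QA, 1.36 for CFD and 1.10 for C3, each higher in the infarct zone after myoblasts, and 0.800 for VSIG4, which was higher in the infarct zone in controls. The dimmer CFB probe set had a quotient of 1.56 with zone ratios of 3.06 after myoblasts and 1.97 in controls, both in the same direction, and with signals floored at the array medians the brighter one had 2.61. C1QA also had ratios of myoblast over control on opposite sides of 1, at 2.05 in the infarct zone and 0.949 in the border zone, as had 39.5% of all probe sets and 32.8% of those above the median on every array. Opposite zone differences were seen for 46.1% of all probe sets and for 43% of those above the median on every array, so the opposite direction alone sets none of these genes apart. The control zone ratio of C3 was 0.997 and turned to 1.01 with median centring.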

How the results depend on the processing

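Of 108 ratios of the members and named genes, 3 changed direction under quantile normalization or median centring, all within 3% of 1: the control zone ratios of C3 and C1S, and the zone ratio of CLU after myoblasts. With a 4-fold threshold, the members called higher with myoblasts numbered 0 in the border zone, 2 in the infarct zone and 0 in the mean, those higher in the infarct zone after myoblasts 0, and the other complement genes higher in the mean 1. At 1.5-fold, 1 member was higher in the infarct zone in controls. Counted per gene, by the brightest probe set or by the mean over probe sets, 3 of 8 members were higher in the border zone. With signals floored at the array median, 3 of the 27 other complement genes were higher in the mean, and the mean log2 ratio of CFB was 0.70, under 2-fold. The other 47 of 56 recounts lay within 1.5 times of the reported numbers. No paired analysis was possible because each group holds 1 array. Signals under the array median limit what can be said of CFB and of the terminal components C8 and C9.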
